A study of Mus musculus with 12 samples.

Results

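The comparison described here is that of an Spdef knockout with its control in mT69a, a line of tumour organoids from a mouse model of pancreatic ductal adenocarcinoma. Its members were the 2 libraries titled as KO1, the Spdef knockout, with an empty vector and the 2 titled as the mouse Rosa26 control with an empty vector, so it holds 4 of the 12 libraries of the series. Both groups carry KrasLSLG12D/+; Trp53LSLR172H/LOH; Pdx1-Cre on a C57/Bl6 background, where the Pdx1 promoter drives Cre in the pancreatic epithelium, and the design text gives the Trp53 allele as heterozygous. The organoids were grown in Matrigel domes in a complete organoid medium, a culture that favours epithelial cells. The controls carry a knockout of the Rosa26 locus, a site commonly cut as a neutral target, and the knockouts one of Spdef. The same knockout with an SPDEF over-expression vector gave 2 more libraries, and a second line, mT6, gave 6. Only 1 Spdef knockout of mT69a, labelled KO1, was sequenced, so the loss of Spdef and whatever else sets KO1 apart cannot be told apart. Whether both libraries of a group came from separate cultures is not given. A p-value here covers only the spread between libraries of the same group, estimated over all 12 libraries, and that spread may be technical.

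SPDEF belongs to the ETS transcription factors and is found in epithelia that make mucus. In goblet and mucous cells it is known for switching on a secretory programme that includes Agr2, Ern2, Creb3l1 and Foxa3. In pancreatic cancer, tumours with high levels of gut and endoderm factors such as GATA6 and HNF4A are called classical, and those that lose them and express keratinocyte and mesenchymal genes are called basal-like.

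Expression is given in CPM, counts relative to library size scaled by the trimmed mean of M-values (TMM), in the order library 1, library 2. Differences are log2 fold changes, knockout against control, with the standard error (SE) and a Benjamini-Hochberg adjusted p from edgeR's quasi-likelihood test over 14473 tested genes. A gene was called at an adjusted p under 0.05, and each group had n = 2. The 4 libraries held 11612907 to 15566407 counts. Mitochondrially encoded genes took 14.7% and 23.5% of the counts in the controls and 15.5% and 20.5% in the knockouts, so that the libraries numbered 1 lay below those numbered 2 in both groups; the part of this share in the results was not tested. Spdef itself (ENSMUSG00000024215.13, GRCm38 chromosome 17, 27714352 to 27728955) stood at 0.125 and 0.269 CPM in the controls and at 0.107 and 0 CPM in the knockouts, which is 6 against 2 counts in all. That is too little for the gene to check the label (adjusted p = 0.646). The cells were epithelial in every library, with Epcam at 286 and 366 CPM in the controls and 344 and 372 CPM in the knockouts, and Krt19 at 1125 and 948 against 1216 and 989 CPM. Of the lists of other cell types, the 15 fibroblast markers together made 0.25 and 0.538 CPM in the controls and 0.483 and 0.261 CPM in the knockouts. The 18 acinar markers made 0.999 and 1.35 against 0.591 and 0.435 CPM. The 12 endothelial markers made 11.6 and 13.9 against 12.5 and 11.5 CPM, and the 28 tuft and enteroendocrine markers 57.4 and 61 against 51.3 and 41.7 CPM. The defining genes Col1a1, Pecam1 and Ptprc had 3 counts or fewer in every library. In bulk RNA, fewer cells of a type and less RNA per cell cannot be told apart.

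Of the tested genes, 1244 changed (8.60%). They were 707 higher in the knockout (4.88%) and 537 lower (3.71%), and 522 of the rises (3.61%) and 291 of the falls (2.01%) exceeded 2-fold. With the replicate number as a block, 2318 genes were called (16.0%), 1231 higher (8.51%) and 1087 lower (7.51%). Leaving out 1 library at a time left 679 (without control 1), 589 (control 2), 559 (knockout 1) and 701 (knockout 2), and 419 genes were called with the same sign in all 4 of these fits. On log2(TPM + 0.1), limma called 322 higher and 150 lower, or 68.2% higher against 56.8% in edgeR. On that scale the median of all genes lay at 0.11, compared with -0.01 in edgeR. Of the 1244 called genes, 124 had a group at or under 3 counts. Among the rises, 41 genes had no count in either control, and among the falls 8 had none in either knockout.

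The plot of single genes shows the pattern for 24 of them.

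**Figure D1:**
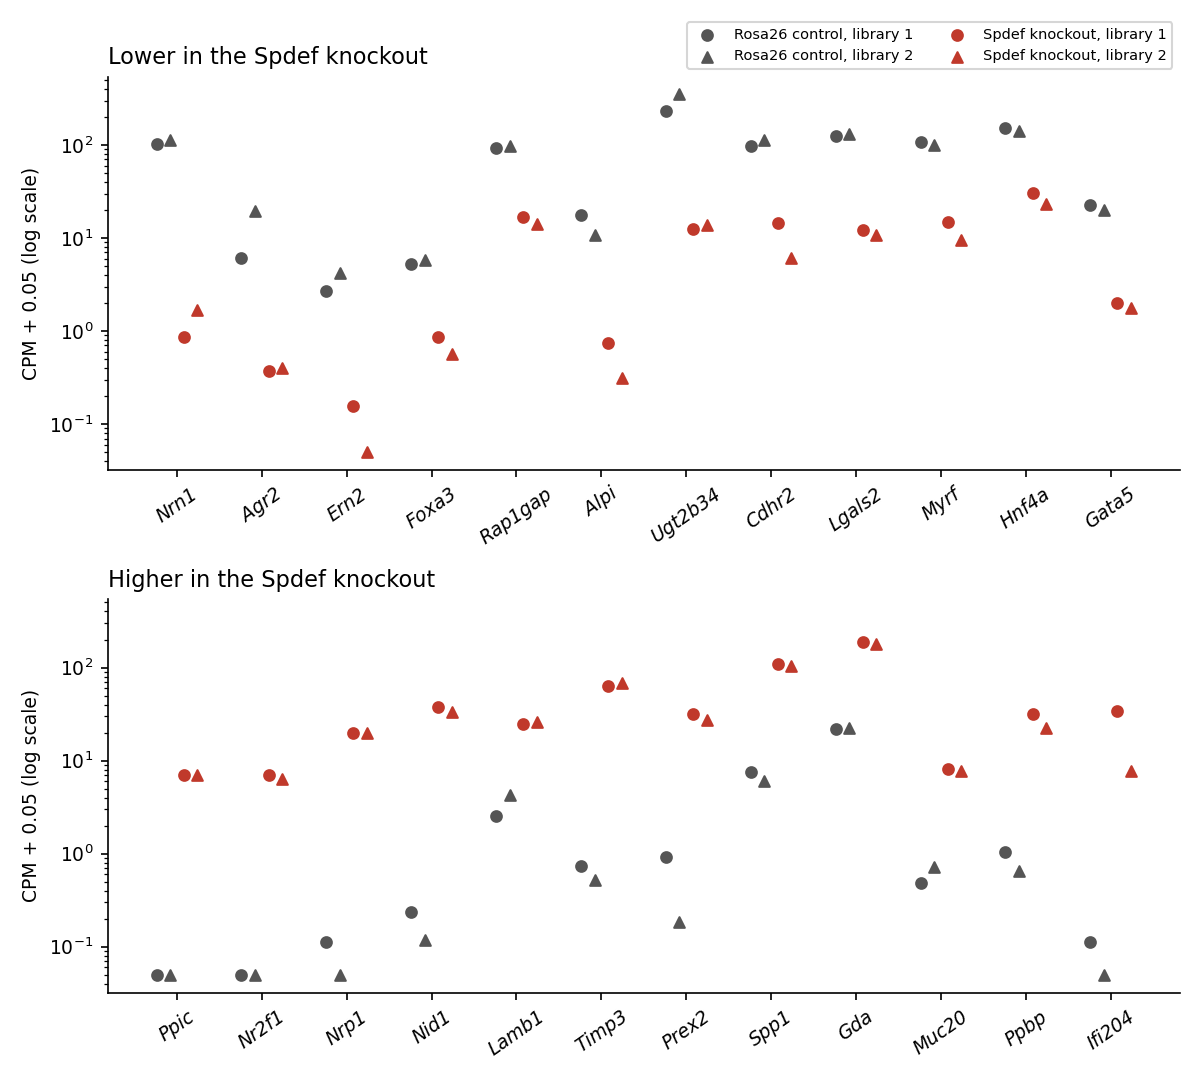
Expression in the 4 mT69a libraries of 12 genes that were lower and 12 that were higher in the Spdef knockout, as CPM + 0.05 on a log scale. Grey symbols are controls and red symbols knockouts, circles library 1 and triangles library 2; the groups do not overlap for any gene shown, and the control symbols of Ppic and Nr2f1 mark 0 counts.

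Among genes of the mucous secretory programme more were called lower than higher. Of 26 measured goblet and mucous genes, 9 fell and 2 rose, with a median log2 fold change of -0.55 (-0.40 with genes at or under 3 counts set to their bound), compared with -0.01 over all genes. Without knockout 1 the falls numbered 5. Agr2, a protein disulfide isomerase that folds mucins, had 6.12 and 19.4 CPM in the controls and 0.322 and 0.348 CPM in the knockouts, a log2 fold change of -5.23 ± 0.90 (adjusted p = 0.00827). The controls differed from each other by more than the knockouts did, and without knockout 1 the adjusted p of Agr2 was 0.0792. Foxa3, a forkhead factor of mucous cells, was at 5.25 and 5.72 CPM against 0.805 and 0.521 CPM (-2.98 ± 0.29, adjusted p = 0.000142). Ern2, the IRE1-type stress sensor of mucous cells, had 104 counts in the controls and 2 in the knockouts, a ratio of 50.7 (95% counting interval 13.7 to 424; adjusted p = 0.00318). Creb3l1, a membrane-bound factor of secretory cells, had 30 counts against 3, a ratio of 9.76 (3.04 to 49.97; adjusted p = 0.00451, and 0.0607 without knockout 1). Spdef itself lay near the floor in both groups, and its part in the falls of these 4 genes was not tested.

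Rap1gap, which inactivates the small GTPase RAP1, went from 92.7 and 96.3 CPM to 17 and 14 CPM (-2.60 ± 0.16, adjusted p = 9.09e-06). Mucin glycosylation enzymes split. Gcnt3, which makes branched O-glycan cores, fell from 157 and 195 to 78.9 and 78.6 CPM (adjusted p = 0.0006). Galnt6, an initiating transferase, had 32 counts in the controls and none in the knockouts. It was at least 7.99-fold lower by the counting interval (adjusted p = 0.00181). By contrast Galnt12, another initiating transferase, rose from 4.75 and 7.4 to 14.9 and 14 CPM, and B3gnt7, which extends the glycans, from 0.25 and 0.269 to 2.69 and 2.43 CPM (adjusted p = 0.00518 and 0.00129). Over the 24 measured glycosylation enzymes, 2 rose and 3 fell, or 7 fell with the replicate block. Of the mucins, Muc20, a membrane mucin, rose from 0.437 and 0.673 to 8.05 and 7.73 CPM (3.82 ± 0.29, adjusted p = 3.54e-05). The secreted mucin Muc5ac had 4.62 and 10.2 CPM in the controls and 1.5 and 1.65 CPM in the knockouts, which was not called (adjusted p = 0.094) except under the replicate block (0.000331). Muc1 stood at 138 and 143 against 168 and 149 CPM (adjusted p = 0.56).

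Among endoderm and gut transcription factors, 8 of 26 measured fell and 4 rose (median -0.27). Leaving out 1 library left 5 or 6 falls and 1 to 4 rises, with the single rise in the fit without control 1. Hnf4a, a nuclear receptor that governs gut and liver epithelium, was at 152 and 141 CPM in the controls and 30.7 and 22.9 CPM in the knockouts (-2.44 ± 0.23, adjusted p = 0.000144). The GATA factor Gata5 had 22.7 and 19.9 CPM against 1.93 and 1.74 CPM (-3.52 ± 0.32, adjusted p = 0.000325). Foxa2, a pioneer factor of endoderm, had 15.4 and 14.3 CPM against 3.28 and 2.69 CPM (adjusted p = 0.00202). In each of these the knockouts lay at least 4-fold below the controls. Gata6, which lies on chromosome 18, had 3.31 and 3.03 CPM against 0.483 and 0.261 CPM (-3.01 ± 0.59, adjusted p = 0.0216), a call lost when any of the 4 libraries was left out, with adjusted p up to 0.132. Isx, an intestinal homeobox gene, went the other way, from 17 and 17.8 to 64.8 and 73.0 CPM (1.98 ± 0.25, adjusted p = 0.000782).

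Classical subtype markers had the highest share of falls among the lists with at least 10 measured members. Of the 35 measured, 15 fell (42.9%) and 1 rose, with a median of -0.60 (-0.52 at the bounds), and without knockout 1 the falls numbered 8 and without control 2 they numbered 10. Besides the factors above, they included Lgals4, a galectin of the gut surface, at 876 and 853 CPM in the controls and 279 and 291 CPM in the knockouts (-1.60 ± 0.28, adjusted p = 0.00577, and 0.0593 without knockout 1). Tspan8, a tetraspanin, went from 398 and 479 to 191 and 213 CPM (adjusted p = 0.00151). The exception was Atp10b, a phospholipid flippase, which rose from 17.6 and 34.0 to 114 and 107 CPM (2.11 ± 0.25, adjusted p = 0.000563). Basal-like and squamous markers moved less: 5 of 26 measured rose and none fell (median 0.19), and without any 1 library the rises numbered 1 or 2. Hmga2, a chromatin protein of embryonic and invasive cells, rose from 26.7 and 28.0 to 67.8 and 50.2 CPM (adjusted p = 0.00425). The basal keratins Krt5 and Krt17 had 2 counts or fewer in every library. The small proline-rich proteins, some of them on this list, were counted as a whole family after values were seen. Of 5 measured, 2 fell, neither of them on this list, and none rose, with a family median of 0.08. Summed over the family they made 2269 and 2261 CPM in the controls and 681.5 and 581.9 CPM in the knockouts.

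The genes that fell furthest had varied roles. Nrn1, a small membrane-anchored protein known from neurons, fell furthest among the abundant genes, from 101 and 112 to 0.805 and 1.65 CPM (-6.52 ± 0.24, adjusted p = 5.61e-07). Alpi, the intestinal alkaline phosphatase of the brush border, had 17.8 and 10.6 CPM against 0.698 and 0.261 CPM (-4.78 ± 0.59, adjusted p = 0.0017). Cdhr2, a protocadherin that links microvilli, had 97.7 and 112 CPM against 14.3 and 6.08 CPM (-3.34 ± 0.45, adjusted p = 0.00183). Lgals2, a galectin, dropped from 124 and 132 to 12 and 10.7 CPM (-3.49 ± 0.34, adjusted p = 0.000191). Also among the 12 largest falls were Heph, a copper-dependent iron oxidase, and Rasgrf2, an exchange factor for RAS. Rasgrf2 had 18.8 and 14.8 CPM in the controls and 0.698 and 0.261 CPM in the knockouts (adjusted p = 0.000416). Heph went from 18.4 and 29.7 to 0.752 and 0.695 CPM (adjusted p = 0.00829, and 0.081 without knockout 1 and 0.0619 without knockout 2).

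Several enzyme families were then counted whole, a choice made after their leading members had been seen. All 3 measured carboxylesterases fell, and so did 5 of 6 UDP-glucuronosyltransferases, which attach glucuronic acid to drugs and steroids; without knockout 1, 1 of each was called. Ugt2b34 was the most abundant, at 232 and 350 CPM in the controls and 12.3 and 13.6 CPM in the knockouts (-4.49 ± 0.71, adjusted p = 0.00573, and 0.0599 without knockout 1). Its neighbour Ugt2b35 had 19.1 and 23.2 CPM against 0.644 and 1.22 CPM (adjusted p = 0.000308). Ces2a, which splits esters in gut and liver, had 31 and 47.9 CPM against 1.99 and 2.26 CPM (adjusted p = 0.00245). Of 4 measured cytosolic sulfotransferases 2 fell, of 10 aldo-keto reductases 4 fell, and of 19 cytochromes P450 4 fell and 1 rose. Akr1c13, an aldo-keto reductase, went from 83.8 and 90.3 to 6.01 and 5.30 CPM (adjusted p = 1.58e-06). Apob, the protein core of lipoproteins, had 134 and 184 CPM against 25.2 and 20.7 CPM (adjusted p = 0.00112). Members of these families are similar in sequence and may share reads, so their single values, and the counts of calls made from them, are uncertain.

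The largest rises began from near 0. Ppic, a cyclophilin of the secretory pathway on chromosome 18, had no count in the controls and 6.93 and 6.87 CPM in the knockouts. It was at least 57.27-fold higher by the counting interval (adjusted p = 4.99e-06). Nr2f1, an orphan nuclear receptor of developing tissues, rose at least 55.05-fold by that interval, to 6.87 and 6.26 CPM (adjusted p = 2.32e-05). Nrp1, a co-receptor for semaphorins and VEGF, had 1 count in the controls and 593 in the knockouts, a ratio of 608 (counting interval 109 to 24040; adjusted p = 1.89e-05). Its values in the knockout libraries lay close together, at 19.6 and 19.8 CPM. Among abundant genes, Spp1 (osteopontin, a secreted integrin ligand) rose from 7.56 and 5.92 to 110 and 103 CPM (3.98 ± 0.37, adjusted p = 0.000168). Gda, which deaminates guanine, rose from 21.6 and 22.6 to 187 and 180 CPM (3.06 ± 0.15, adjusted p = 3.23e-06), the smallest SE among these rises.

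Genes of the extracellular matrix were higher. Of 35 measured basement membrane, matrix and integrin genes 12 rose and 1 fell (median 0.26), and without 1 library the rises numbered 5 to 7. Nid1, the nidogen that joins laminin to collagen IV, had 4 counts in the controls and stood at 37.9 and 32.9 CPM in the knockouts (8.01 ± 0.48, adjusted p = 1.03e-05). Timp3, a matrix-bound inhibitor of metalloproteinases, rose from 0.687 and 0.471 to 62.5 and 68.5 CPM (6.79 ± 0.35, adjusted p = 4.04e-06). Lamb1, a laminin chain, rose from 2.5 and 4.17 to 24.8 and 25.9 CPM, against the general direction of its chromosome 12 (2.93 ± 0.26, adjusted p = 9.02e-05). Fbln2, a fibulin, rose from 3.62 and 2.89 to 27.0 and 21.1 CPM, and the endostatin precursor Col18a1 from 162 and 178 to 375 and 406 CPM (adjusted p = 9.34e-05 and 0.000423).

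Of the 39 genes of the epithelial-mesenchymal transition list, 16 were measured, 8 rose and 1 fell (median 2.38, or 2.33 at the bounds), and without any 1 library the rises numbered 3. Summed over the 39 genes, the list made 196.5 and 279.5 CPM in the controls and 283.6 and 259 CPM in the knockouts, so the groups overlapped. In the controls 20 and 21 of the 39 had no count, and in the knockouts 17 and 18. Among the rises was S100a4, a motility-linked calcium-binding protein, which went from 3.37 and 2.89 to 21.8 and 22.9 CPM (2.83 ± 0.25, adjusted p = 9.02e-05). The transition factors Zeb1, Snai2 and Twist1 had no count in any of the 4 libraries, which allows at most 3 counts in each. Snai1 had no count in the controls and 3 and 1 counts in the knockouts, and Zeb2 had 1 count, in knockout 1. Vim, the mesenchymal filament gene, stood at 0.437 and 0.0673 against 1.72 and 1.13 CPM (adjusted p = 0.15). Of 44 epithelial junction and identity genes, the claudins Cldn2 and Cldn18 were called lower and none higher. Both calls were lost in most fits with 1 library left out, not only in that without knockout 1.

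Signalling genes with new expression included a G protein and phosphoinositide group, of which 6 of 29 measured rose and 2 fell (median 0.28). Gnai1, an inhibitory G protein subunit, had no count in the controls and 4.73 and 4.08 CPM in the knockouts. It was at least 36.99-fold higher by the counting interval (adjusted p = 1.22e-05). Prex2, an exchange factor for RAC, rose from 0.874 and 0.135 to 31.3 and 27.1 CPM (5.80 ± 0.49, adjusted p = 9.02e-05). Plcg2, a phospholipase, rose from 0.874 and 0.875 to 9.77 and 7.73 CPM, and Vav3, another exchange factor, from 0.625 and 0.336 to 6.28 and 7.65 CPM (adjusted p = 3.75e-05 and 0.000199).

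Of 37 measured ligand genes 7 rose and 2 fell (median 0.91). Ppbp, a neutrophil-attracting chemokine, rose from 0.999 and 0.606 to 31.5 and 22.4 CPM (5.05 ± 0.56, adjusted p = 0.000416). Tgfb3 rose from 2.19 and 2.69 to 12 and 11 CPM (adjusted p = 0.000155), again from chromosome 12. Wnt pathway genes were divided, with 4 of 22 measured higher and 2 lower (median -0.20), or 6 and 5 with the replicate block. Lgr6, an R-spondin receptor, rose from 0.749 and 0.269 to 11.6 and 11.9 CPM (4.49 ± 0.50, adjusted p = 0.000332), and Wnt4 from 8.56 and 8.14 to 34.3 and 29.98 CPM (adjusted p = 0.000395). Its relative Lgr5, the intestinal stem cell receptor, fell from 21.7 and 43.7 to 6.66 and 8.52 CPM (-2.12 ± 0.34, adjusted p = 0.00398, and 0.0562 without knockout 1). Notum, which inactivates WNT ligands, rose from 4.06 and 5.52 to 18.8 and 19.2 CPM (adjusted p = 0.000205).

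Of 21 ductal transport genes 4 were higher and 4 lower; with 1 library left out, 2 or 3 were higher (2 without either control) and 1 to 3 lower (1 without knockout 1 or control 2, 2 without knockout 2). Car2, a carbonic anhydrase, rose from 8.74 and 5.58 to 60.9 and 50.8 CPM (2.96 ± 0.38, adjusted p = 0.00117). Kcne3, a potassium channel subunit that aids chloride secretion, fell from 35.7 and 48.8 to 10.2 and 13.2 CPM (-1.86 ± 0.27, adjusted p = 0.00203). Growth and stress lists gave 0 to 3 calls in either direction. Of 40 proliferation genes 1 rose and 1 fell, the D-type cyclins Ccnd1 and Ccnd2, and Mki67 stood at 599.8 and 698 against 517 and 685 CPM. Endoplasmic reticulum stress targets gave 1 fall of 34 (Ern1), with the chaperone Hspa5 at 724 and 878 against 1082 and 910 CPM (adjusted p = 0.441). Cholesterol synthesis gave 3 falls of 34, glycolysis and hypoxia 1 rise of 32, the ATF4 stress list 1 rise of 27, p53 targets 3 rises of 28 (10.7%) and MAPK output 1 rise of 24. Leaving out 1 library left 0 or 1 of the p53 rises (0 without control 2 or knockout 2) and 0 to 2 of the cholesterol falls (0 without knockout 1). Immediate early and heat shock genes gave 2 rises of 19 (10.5%), and 1 with any library left out, and the 15 measured mitochondrially encoded genes gave none. Tuft and enteroendocrine markers had 3 measured members, of which Avil, an actin-severing protein, fell from 43.7 and 50.7 to 8.22 and 2.61 CPM and Ptgs1, a cyclooxygenase, rose from 12.8 and 8.14 to 40.7 and 36.3 CPM (adjusted p = 0.00129 and 0.000308).

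**Figure D2:**
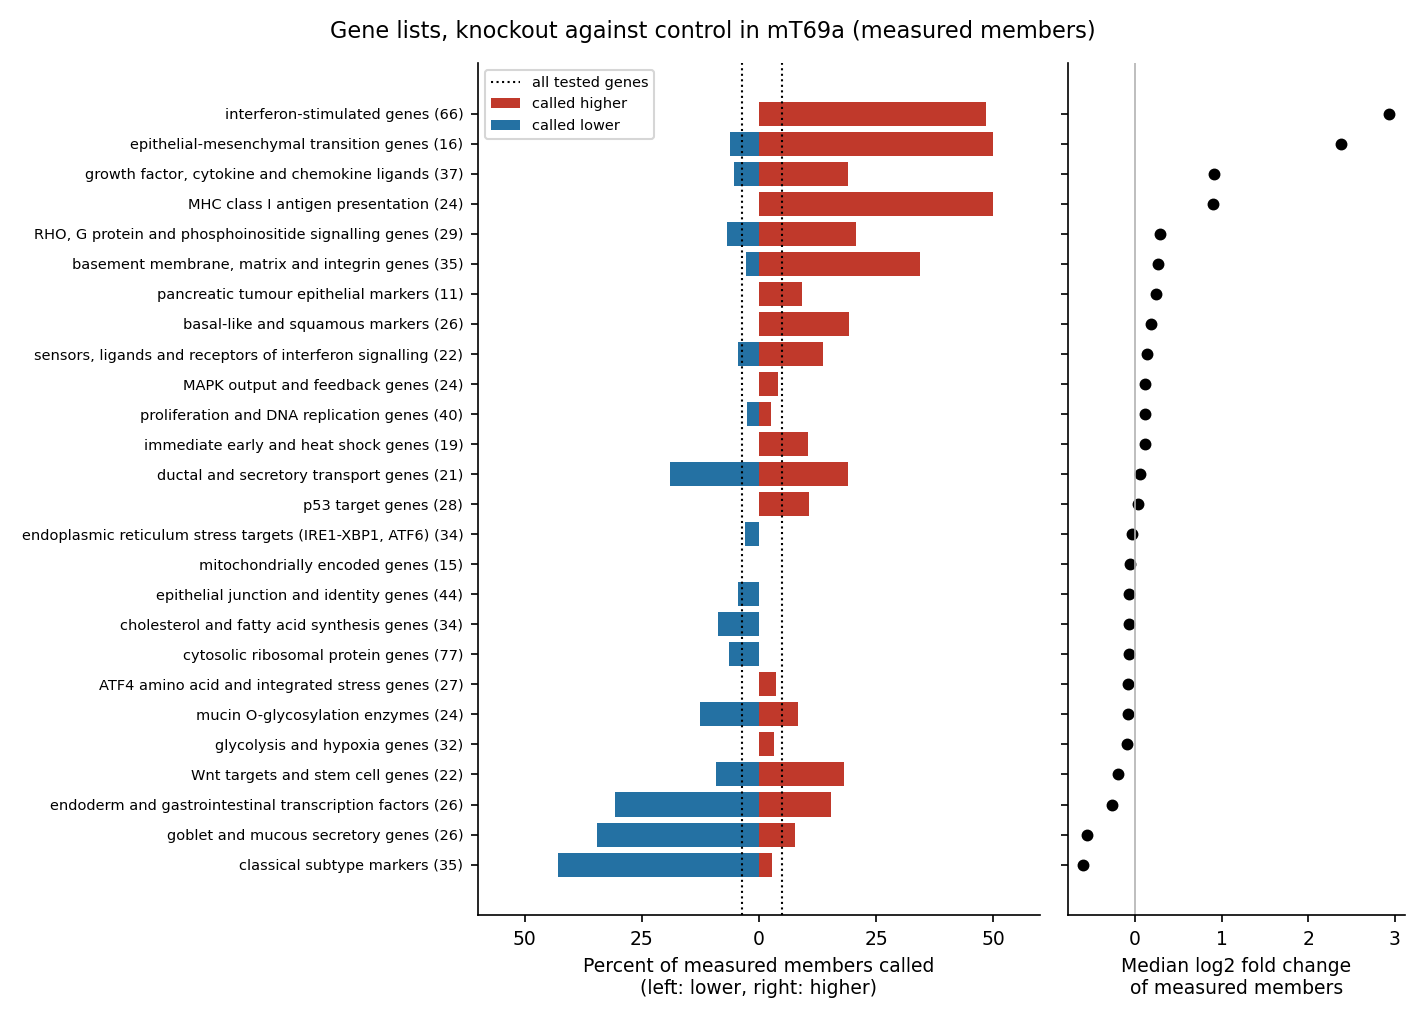
Share of the measured members of 26 gene lists called higher (red, right) or lower (blue, left) in the knockout, in percent, with the number measured in parentheses, and the median log2 fold change of those members. Dotted lines mark the shares of all tested genes, 4.88% higher and 3.71% lower; interferon-stimulated genes have the highest median, 2.94, and classical subtype markers the lowest, -0.60.

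Interferon-stimulated genes were higher, but far more in one knockout library than in the other. Interferons act through receptors that activate STAT factors, and the resulting complex binds a short repeated element, the interferon-stimulated response element, in the promoters of antiviral genes. Of 66 measured genes 32 rose (48.5%) and none fell, with a median of 2.94 (2.79 at the bounds). The promoters of 24 of the 32 were found in the RefSeq promoter table (GRCm38.p6, 250 bases before to 50 after the start). Of these, 17 (70.8%) held the letters GAAA, any 2 bases and GAAA again, or TTTC, any 2 bases and TTTC where the element lies on the other strand, compared with 31 of 53 (58.5%) for all measured genes of the list and 3.99% of all 27025 genes with a promoter in the table. Overlapping matches within a promoter were counted once. The stretches below lie before the start of 6 of these genes and are shown as examples of the element. Each is read in the direction of its gene, with the matched letters in capitals.
Ifit1 (chr19:34640774-34640843, plus strand): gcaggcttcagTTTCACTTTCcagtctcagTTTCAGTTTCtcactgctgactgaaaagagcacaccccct
Oas3 (chr5:120777695-120777764, minus strand): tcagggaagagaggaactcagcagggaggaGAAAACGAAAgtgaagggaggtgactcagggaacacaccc
Rsad2 (chr12:26456533-26456602, minus strand): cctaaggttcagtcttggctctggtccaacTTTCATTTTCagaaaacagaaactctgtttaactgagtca
Igtp (chr11:58199492-58199555, plus strand): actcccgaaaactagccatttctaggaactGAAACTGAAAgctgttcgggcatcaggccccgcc
Irgm2 (chr11:58214883-58214952, plus strand): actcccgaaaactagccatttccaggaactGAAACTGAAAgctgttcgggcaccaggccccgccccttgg
Ifi211 (chr1:173913047-173913113, minus strand): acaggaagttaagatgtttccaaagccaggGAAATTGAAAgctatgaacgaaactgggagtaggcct
Among genes called higher the element was found in 41 of 542 promoters (7.56%), and among those called lower in 5 of 351 (1.42%), beside 3.58% of the tested genes with a promoter. The core letters bound by SPDEF, GGATGT or ACATCC, were in 9.69% of the promoters of genes called lower, 9.41% of those called higher and 10.7% of those tested. A match is a description of the sequence and does not show binding.

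Summed over the list, interferon-stimulated genes made 344 and 383 CPM in the controls, 1752 CPM in knockout 1 and 585 CPM in knockout 2. In 65 of the 66 genes knockout 1 was above knockout 2 (98.5%, against 53.6% of all tested genes), while 54 of the 66 (81.8%, against 24.1% of all tested genes) were above both controls in both knockouts. The list's median difference from the mean of the controls, in log2(CPM + 1), was 2.29 in knockout 1 and 0.50 in knockout 2. Ifit1, an antiviral RNA-binding protein, had 0.187 and 0.135 CPM in the controls and 15.1 and 0.521 CPM in the knockouts (adjusted p = 0.0422, and 0.46 without knockout 1). Oas2, which makes a messenger that activates RNase L, had 0.125 and 0.202 CPM against 34.9 and 0.782 CPM (adjusted p = 0.0386). Rsad2 (viperin) had 0.125 and 0.336 against 16.4 and 0.608 CPM (adjusted p = 0.0453), and its chromosome 12 neighbour Cmpk2, a mitochondrial nucleotide kinase, had 3 counts in the controls and 12.5 and 0.695 CPM in the knockouts (adjusted p = 0.025); all 4 of these calls were lost with the replicate block.

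The number of list members called rested on the library left out: 10 without knockout 1, 47 without knockout 2, and 6 without either control, while the block gave 26 and DESeq2 46. The groups did not overlap in any of the 1244 called genes, those of this list included. Only Epsti1, Ifi211, Ifi204, Ifitm3, Eif2ak2 and Parp14 kept their call in every fit with a library left out. Epsti1, an interferon-induced epithelial gene, had 0.375 and 0.404 CPM against 16.4 and 8.86 CPM (5.0 ± 0.39, adjusted p = 3.8e-05). Ifitm3, a membrane protein that blocks virus entry, had 0.749 and 1.55 CPM against 46.8 and 22.1 CPM (4.92 ± 0.66, adjusted p = 0.00194). Ifi204, a DNA-sensing protein, had 1 count in the controls and 33.9 and 7.73 CPM in the knockouts, a ratio of 738 (132 to 29180; adjusted p = 0.000922). Ifi211, of the same family, had 2 counts and then 21.2 and 5.82 CPM.

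Of 22 measured sensors, ligands and receptors of interferon signalling 3 rose (13.6%) and 1 fell, and in each fit with 1 library left out 1 rose and 1 fell. The interferon genes Ifnb1, Ifna1, Ifna4, Ifng and Ifnl3 had no count in any of the 4 libraries, which allows up to 0.0996 CPM over the knockout pair. Ifne, an epithelial interferon, went from 0.812 and 1.08 to 3.38 and 4.0 CPM (adjusted p = 0.0217, lost when any 1 library was left out, with adjusted p up to 0.14). Tmem173 (STING), the adaptor for cytosolic DNA sensing, rose from 0.749 and 1.55 to 7.73 and 8.08 CPM, alike in both knockouts and against the direction of its chromosome 18 (2.79 ± 0.38, adjusted p = 0.00138). Myd88, the adaptor of Toll-like receptors, went from 12.9 and 11.6 to 17.8 and 19.1 CPM (adjusted p = 0.0333), a call lost when any 1 library was left out, with adjusted p up to 0.204. The receptor chain Ifngr1 fell from 86.1 and 109 to 53.3 and 51.1 CPM (-0.90 ± 0.14, adjusted p = 0.00276), and Ifnar1 stood at 28.6 and 30.9 against 34.1 and 30.5 CPM. Ptprc, the pan-leukocyte gene, had 1 count in the 4 libraries together. Of 20 immune cell markers 2 were measured and neither was called, with sums of 4.68 and 6.32 CPM in the controls and 13.3 and 8.603 CPM in the knockouts. The part of immune cells in the interferon-stimulated genes was not tested.

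**Figure D3:**
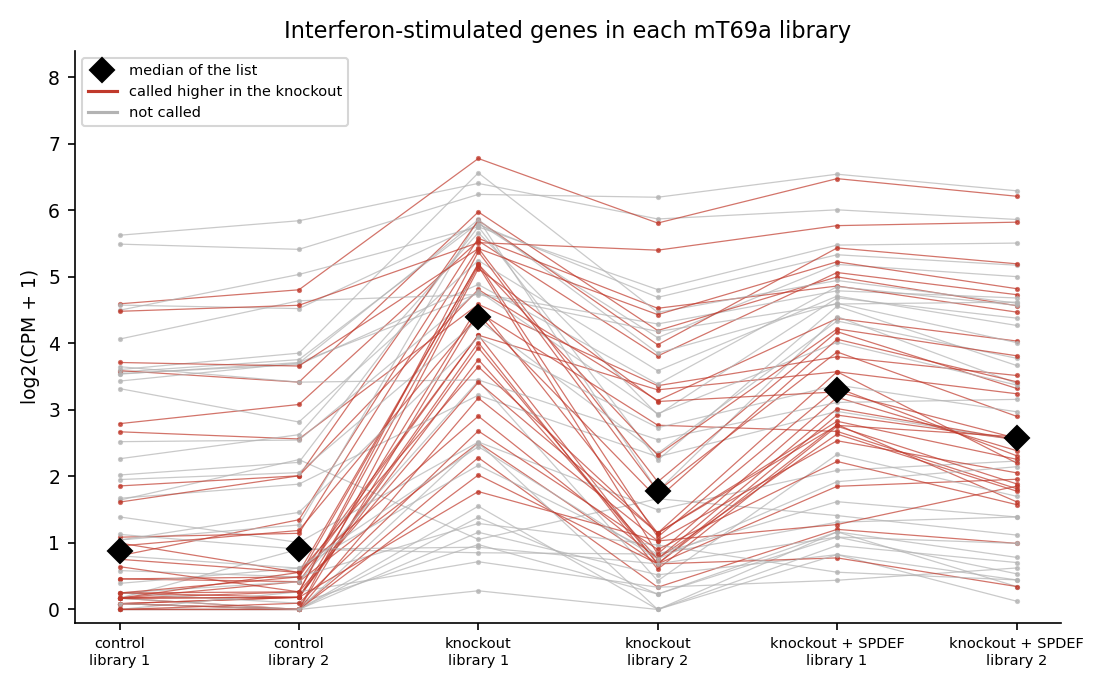
The 66 measured interferon-stimulated genes in the 6 mT69a libraries, as log2(CPM + 1), each line a gene and red where it was called higher in the knockout. Black diamonds are medians of the list; knockout library 1 stands above knockout library 2, whose genes lie nearer the controls, and both libraries of the knockout with the SPDEF vector lie between.

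Antigen presentation genes rose with less difference between the knockout libraries. Of 24 measured MHC class I genes 12 rose and none fell (median 0.90), 5 without knockout 1 and 4 without either control. The median ratio of knockout 1 to knockout 2 over the 12 was 1.46, compared with 7.70 over the called interferon-stimulated genes. Tap1 and Tap2, which pump peptides into the endoplasmic reticulum, rose from 0.874 and 1.14 to 19.4 and 7.04 CPM and from 0.812 and 1.55 to 7.04 and 5.39 CPM (adjusted p = 0.000625 and 0.000922). H2-Q2, a non-classical class I chain, rose from 1.69 and 2.56 to 8.97 and 7.47 CPM (adjusted p = 0.00174). The abundant classical chains were not called: H2-K1 stood at 167 and 191 against 180 and 150 CPM, and H2-D1 at 178 and 204 against 272 and 211 CPM. The class I genes are close copies of each other, so their single values are uncertain.

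Genes of chromosomes 12 and 18 were set apart from the rest, because on both most tested genes lay below 0. The 565 tested genes of chromosome 12 had a median log2 fold change of -0.34 and 79.1% lay below 0. On chromosome 18 the 341 tested genes had a median of -0.49 and 82.7% lay below 0. On the other 18 chromosomes (1 to 19 and X) the medians ran from -0.10 to 0.08, and 39.9% to 62.7% of genes lay below 0. Both knockout libraries showed the shift alike. Over genes of at least 5 CPM, chromosome 12 lay at -0.33 and -0.34 relative to the controls in log2(CPM + 1), and chromosome 18 at -0.45 and -0.53, while the controls themselves lay between -0.02 and 0.02. The shift ran along the whole of both chromosomes: in windows of 10 Mb with at least 10 such genes, the medians of 11 windows of chromosome 12 lay between -0.51 and -0.26, and those of 9 windows of chromosome 18 between -0.63 and -0.42.

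**Figure D4:**
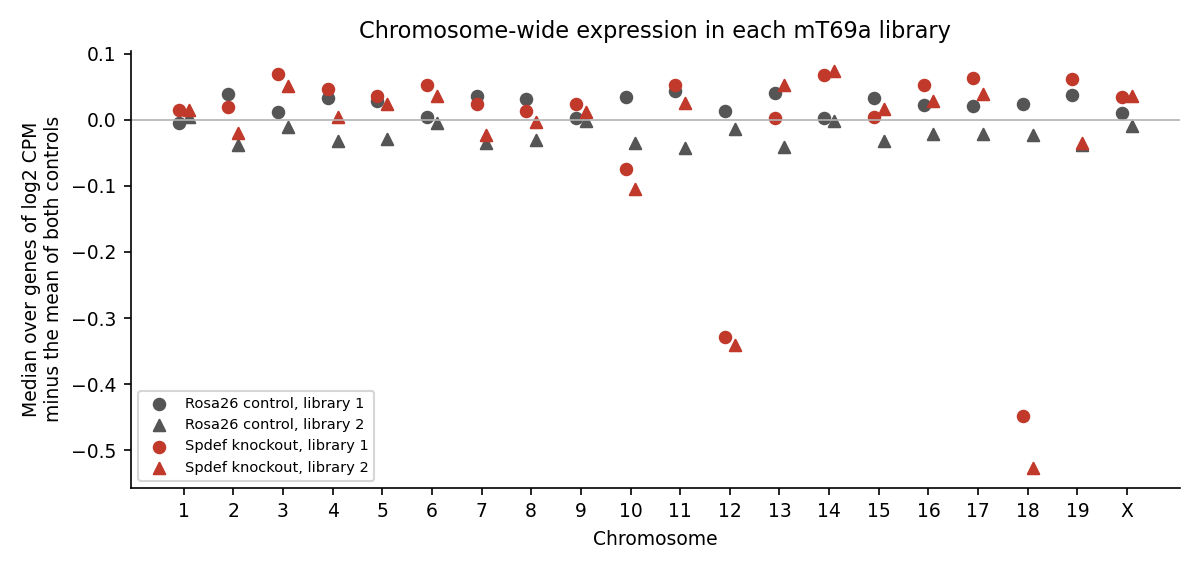
Median over genes of at least 5 CPM of the difference from the mean of both controls, in log2(CPM + 1), for each chromosome in the 4 mT69a libraries. Chromosomes 12 and 18 lie at -0.33 to -0.53 in both knockouts (red), and the other chromosomes between -0.10 and 0.07.

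These chromosomes weigh on the list of falls. Of the 537 genes called lower, 166 (30.9%) lie on chromosomes 12 and 18, which hold 6.26% of the tested genes. On chromosome 12, 75 genes fell (13.3%) and 22 rose (3.89%), and on chromosome 18, 91 fell (26.7%) and 12 rose (3.52%). With the replicate block the falls numbered 154 and 162. The falls there were small: 44 of the 166 exceeded 2-fold, against 247 of 371 elsewhere, with a median among called falls of -0.72 on each of the 2 chromosomes and -1.45 elsewhere. With both chromosomes left out, 673 of 13567 genes were higher (4.96%) and 371 lower (2.73%). Ribosomal protein genes, which are abundant and vary little, were read by chromosome as well. All 5 of those measured on chromosomes 12 and 18 fell (Rps7, Rps29 and Rpl36al on 12, Rps14 and Rpl17 on 18), with log2 fold changes of -0.70 to -0.52, though without 1 library only 0 to 3 ribosomal protein genes were called (0 without knockout 1, 3 without control 2). Of the 72 elsewhere none was called, and their values ran from -0.37 to 0.17. Rpl17, a protein of the large subunit, had 647 and 616 CPM in the controls and 394 and 407 CPM in the knockouts (-0.66 ± 0.11, adjusted p = 0.00385, and 0.0501 without knockout 1).

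Against that background, single genes of both chromosomes changed by more. On chromosome 12 the 5 largest changes with a mean of at least 2 CPM were those of Agr2, Rab15, Smoc1, Cmpk2 and Rsad2. Rab15, a small GTPase of endosomes, rose from 0.687 and 0.538 to 22.9 and 19.2 CPM (5.08 ± 0.29, adjusted p = 7.55e-06), and Smoc1, a secreted calcium-binding protein, from 0.25 and 0.336 to 9.29 and 8.08 CPM (4.86 ± 0.56, adjusted p = 0.000423). Agr2, at -5.23, fell far below the chromosome's median. On chromosome 18 they were Ppic, Mapre2, Tmem173, Jcad and Bambi. Mapre2, which binds microtubule ends, fell from 43.8 and 39.3 to 6.07 and 4.87 CPM (-2.91 ± 0.21, adjusted p = 2.27e-05), while Bambi, a decoy receptor for TGF-beta, rose from 2.5 and 2.09 to 11.8 and 13.2 CPM (2.44 ± 0.19, adjusted p = 3.54e-05). Smaller falls included 2 on chromosome 18 at or beyond its lower quartile of -0.72. Slc12a2, the chloride importer of secretory cells on chromosome 18, went from 326 and 366 to 162 and 187 CPM (-0.99 ± 0.20, adjusted p = 0.0125), and Stard4, a cholesterol carrier on 18, from 196 and 214 to 109 and 132 CPM (-0.77 ± 0.18, adjusted p = 0.0234). Both calls were lost in fits with 1 library left out, with adjusted p up to 0.119 and 0.195.

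After a step was seen on chromosome 17 in gene order, the same 10 Mb windows were laid over every chromosome. Of 223 windows outside chromosomes 12 and 18, 6 had medians beyond -0.25 or 0.25, and the middle range was -0.02 to 0.07. All 3 windows of chromosome 17 from 60 Mb on were raised, at 0.47, 0.59 and 0.32, while the 6 before them lay between -0.05 and 0.06. Of the 119 tested genes in that distal part 36 rose (30.3%) and 2 fell, compared with 23 higher and 14 lower of 572 on the rest of chromosome 17. The interferon-stimulated gene Eif2ak2 lies in it (23.2 and 27.0 against 109 and 55.1 CPM), whereas Spdef and the class I genes lie before it. A window of chromosome 14, from 70 to 80 Mb, was also raised, at 0.47, with 12 of 58 tested genes higher (20.7%), and it holds Epsti1. The last window of chromosome 9, from 120 Mb, lay at -0.40, with 5 of 46 tested genes lower. The remaining window, on the X chromosome from 90 to 100 Mb, stood at the limit with 0.25. In each of these windows both knockouts moved the same way, at 0.50 and 0.42 for distal chromosome 17, 0.40 and 0.47 for chromosome 14, and -0.40 and -0.23 for chromosome 9.

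**Figure D5:**
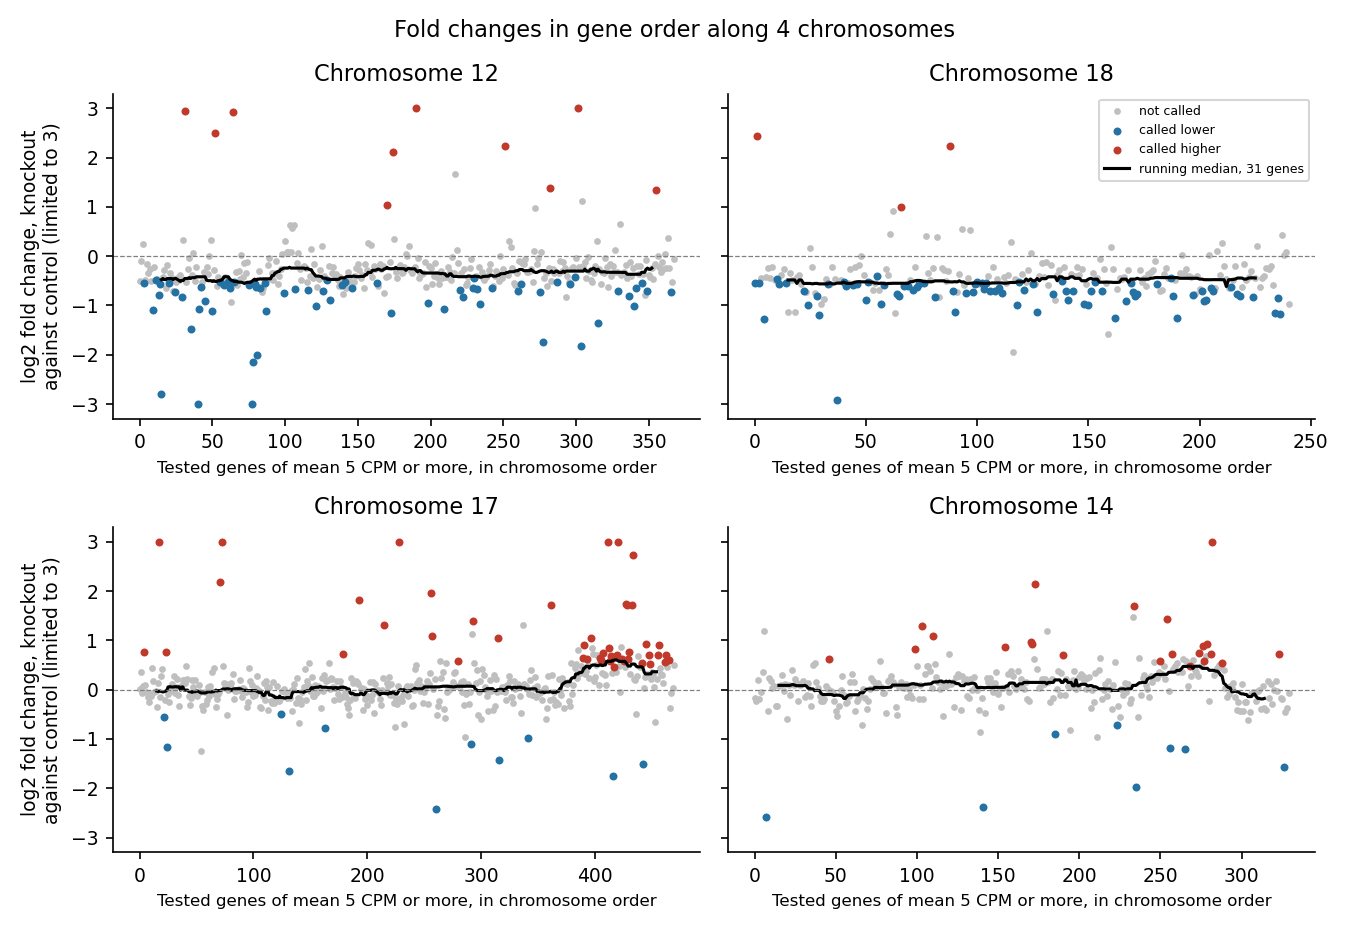
Log2 fold change of tested genes of at least 5 CPM in order along chromosomes 12, 18, 17 and 14, limited to 3 in either direction, with a running median over 31 genes (black line); blue genes were called lower and red higher. The line stays below 0 along chromosomes 12 and 18, rises over the last part of chromosome 17 and over a stretch late on chromosome 14, and lies near 0 over the rest of these.

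The response of mT69a differed from that of mT6, the other line, in 958 genes by the test of the difference (6.62%), and 653 of the 1244 genes changed in mT69a were among them. In mT6, 185 genes were higher (1.28%) and 283 lower (1.96%). Of the mT69a rises 41 were also called higher in mT6 and 50 lower, and of the falls 29 were also lower there and 15 higher. The drop on chromosomes 12 and 18 was not seen in mT6, whose medians were 0.05 and 0.08. Timp3 rose by 7.27 more on the log2 scale in mT69a than in mT6 and Muc20 by 5.52 more (adjusted p of the difference 3.35e-05 and 2.62e-05). For Agr2, Foxa3, Creb3l1 and Gata5 the difference between lines was not called (adjusted p = 0.218, 0.247, 1.0 and 0.818). The difference was called for 10 of the 66 interferon-stimulated and 11 of the 24 class I genes. All 11 lie on chromosomes 17 and 14, whose medians in the mT6 knockout were -0.44 and -0.37; chromosomes 1 and 19 were low there too, at -0.28 and -0.29.

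The knockout with the SPDEF vector shares the control libraries used above, so its values are only set beside them. Mouse Spdef stood at 0.119 and 0 CPM there, a reading that need not capture the vector. Some genes that fell in the knockout stood near or above the control level in the vector libraries: Foxa3 at 24.3 and 22.2 CPM, Ern2 at 15.7 and 20.01, Creb3l1 at 23.1 and 17.7, Rap1gap at 83.4 and 71.8 and Tspan12, a tetraspanin, at 61.8 and 93.7 (72.1 and 123 in the controls, 7.09 and 9.82 in the knockouts). Others stayed at the knockout level, among them Nrn1 at 1.3 and 1.44 CPM, Gata5 at 1.96 and 0.991 and Hnf4a at 18.4 and 16.9. Ppbp, high in the knockouts, stood at 1.07 and 0.631 CPM, while Timp3 (39.2 and 23.4), Nid1 (24.4 and 31.5) and Nrp1 (7.12 and 4.96) were above the controls in the vector libraries too. Chromosomes 12 and 18 were low there as well, at -0.38 and -0.39 and at -0.49 and -0.51 in log2(CPM + 1). Distal chromosome 17 was raised, at 0.54 and 0.53, and the chromosome 9 window from 120 Mb was low, at -0.49 and -0.44. The chromosome 14 window from 70 to 80 Mb lay at 0.12 and 0.14, against 0.40 and 0.47 in the knockouts.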

How the data were processed

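Per the labels, total RNA from 12 organoid libraries (6 groups of 2) was extracted with Trizol, treated with DNase on the column and made into stranded total RNA libraries. Per the submitters' processing notes, the tools were FastQC 0.11.8, STAR 2.5.2b and RSEM 1.3.0 with GRCm38.p6. The deposited expected counts are the authors' RSEM estimates per gene and need not be whole. The deposited TPM values, scaled for transcript length and library size, were used for an alternative only.

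Expected counts were rounded. Of 53715 gene IDs, 53620 matched GENCODE M21 names, and the 95 others held 0.0109% of counts. Genes were filtered by edgeR's filterByExpr, leaving 14473, scaled by TMM and fitted over all 6 groups with edgeR 4.0.16 (robust quasi-likelihood, 6 residual degrees of freedom and a 19.2% biological coefficient of variation), with Benjamini-Hochberg adjustment. The analysis was tested on simulated data. Exact Poisson-based 95% intervals and the floor of 3 counts cover counting error only. R 4.3.3, limma 3.58.1, DESeq2 1.42.0 and Python 3.11.15 were also used.

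Same-numbered libraries deviated together in all 15 pairs of groups (correlations 0.267 to 0.624 over 9769 genes). This pairing comes from the data, not from a label. The main fit had no term for the replicate number, so its calls, SEs and adjusted p leave the pairing out. Only the replicate block, with 5 residual degrees of freedom, takes it in. Members and lists were chosen with earlier results of these data known. Named genes were 12 chosen outright (Spdef, Agr2, Ern2, Creb3l1, Foxa3, Gata5, Gata6, Muc1, Muc5ac, Muc20, Timp3 and Prex2), the 12 largest falls and 12 largest rises by log2 fold change among called genes without overlap between groups and averaging 2 CPM or more, the 6 largest each way among genes of at least 50 CPM, the 5 largest changes on chromosomes 12 and 18, and up to 4 called members per list by adjusted p. Other list members and the 9 gene families were picked after their values were seen. Alternatives were another scaling, filter and tool, limma on log2(TPM + pseudocount), other sets of libraries, the replicate block, and each library left out. Some genes that the rule names are not reported here.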

Additional observations from a re-analysis of the deposited data

Results flagged for a closer look

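Of the 12 genes chosen outright, 3 responded differently in mT69a and mT6 by edgeR's test of the difference; over all 120 named genes the difference was called for 71. Timp3 changed by 6.79 on the log2 scale in mT69a and by -0.47 in mT6, a difference of 7.27 (adjusted p = 3.35e-05). For Muc20 the changes were 3.82 and -1.70, a difference of 5.52 (adjusted p = 2.62e-05). For Ern2 they were -5.51 and -1.28, a difference of -4.23 (adjusted p = 0.0422); its knockout libraries in mT69a held 2 counts, so this fitted size depends on the prior count.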

How the results depend on the processing

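Beside 1244 changed genes by edgeR, limma on log2(TPM + pseudocount) called 485 with a pseudocount of 1, 472 with 0.1, and 477 with 1 and no filter. The replicate block called 2318, and fits with 1 library left out called 559 to 701. For the number of genes whose response differs between the lines (958), the same limma settings called 319, 286 and 239, the block 2206, edgeR without a filter 1577, and fits with 1 library left out 534 to 652. The chromosome 12 median of -0.34 became -0.25 without a filter and -0.20, -0.23 and -0.035 under those limma settings, and the chromosome 18 median of -0.49 became -0.33, -0.38 and -0.12. The median of all genes moved too, from -0.01 in the main fit to 0 in edgeR without a filter. Under those limma settings it was 0.09, 0.11 and 0. The causes were not tested. Of 110 called named genes 71 kept their call in all 4 fits with a library left out. The block ended 2 calls among the named genes (Cmpk2, Rsad2), made 1 (Muc5ac) and changed no other call among them. No named gene reversed under the alternatives run. With 2 libraries a group, an exact permutation test cannot go below p = 0.333, and no test of chromosome medians was run.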
